A study of Mus musculus with 6 samples.

Results

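Livers of mice labelled Cry-deficient were compared with livers of wild type mice at 2 circadian times, on 4 of the 6 arrays of the series. All arrays carried total RNA of the liver of male mice 8 to 10 weeks old. The wild type mice were of C57BL/6 background and no strain was given for the mutants. One of the Cry-deficient arrays was described as a knockout of both Cry1 and Cry2 and the other as deficient in Cry, without naming a gene. Each genotype was sampled at CT02 and at CT14, 2 h and 14 h into the circadian day, with 1 array per genotype and time. The remaining 2 arrays, of a Clock mutant whose allele was not given, serve here only for values set side by side. Of 8251 genes with a probe set of their own, 4844 were bright enough to be compared. The genes of interest are those that stood apart in the same direction at both times, taken as at least 2-fold between the arrays of each time: 23 genes were higher in the Cry-deficient arrays at both times and 23 were lower.

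The circadian clock of a liver cell is a loop in which the transcription factors CLOCK and ARNTL (BMAL1) bind E-box sequences and switch on the Per and Cry genes, whose proteins return to the nucleus and shut CLOCK and ARNTL off. Cryptochromes are the main repressors of that loop, and mice that lack both of them lose circadian rhythm in constant darkness. The loop also drives the output factors Dbp, Tef and Nr1d2, and through them and through feeding it times much of the liver's drug, lipid and glucose metabolism.

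The levels below are scaled intensities, brought to a common median, and pairs of values give CT02 first and CT14 second. Values below 606 scaled units were read as that floor, so that a fold against such a value is a lower bound, written as at least. Levels of different genes come from different probe sets and cannot be ranked against each other. Between 4.75% and 8.05% of the compared genes lay at the floor on an array, and 4200 were above it on all 4 arrays compared. For Gapdh, the 3′ probe set divided by the 5′ one, a measure of RNA integrity, gave 0.696 and 0.716 in wild type against 2.37 and 0.699 on the Cry-deficient side. For Actb it was 0.840 and 0.928 in wild type against 1.70 and 0.864. For Pcx it was 19.7 and 3.96 in wild type against 25.3 and 7.14, high on both CT02 arrays. The Cry-deficient CT02 array therefore stood apart among the arrays compared for Gapdh and Actb, but less so for Pcx. Its part in the CT02 values was not tested, and the CT14 value given beside each is the value without that array. The Clock mutant arrays gave 0.561 and 0.593 for Gapdh and 2.68 and 1.15 for Actb. All 10 hepatocyte markers measured were among the genes compared. Their summed level was 130118 and 128491 in wild type and 142231 and 122250 in the Cry-deficient arrays. At CT02 8 were higher and 2 lower, and at CT14 1 was higher and 8 lower, with median log2 ratios of 0.23 and -0.05. Hnf4a was 4.64-fold and 1.58-fold lower. Of 13 macrophage markers, 12 were higher in the Cry-deficient array at CT02 and 8 at CT14. Their summed level was 45972 and 45465 in wild type against 64457 and 48331. Of 8 endothelial markers, 8 were higher at CT02 and 7 at CT14, with median log2 ratios of 0.23 and 0.42 and a summed level of 17130 and 12102 in wild type against 21732 and 17498. Of 8 stellate cell or fibroblast markers, 2 were higher at CT02 and 3 at CT14, with medians of -0.43 and -0.08. The part of these cell types in the results was not tested. Of the other cell types, 2 of 14 T or NK cell markers, 4 of 11 B cell markers and 4 of 10 neutrophil markers were bright enough to compare. In RNA of whole liver, a smaller number of cells of one type and less RNA per cell cannot be told apart.

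The targeted genes were still read on the arrays. Cry1 measured 1833 and 2723 in wild type and 3845 and 4718 in the Cry-deficient arrays, 2.10-fold and 1.73-fold higher. Cry2 measured 1215 and 2256 in wild type and 1185 and 1344 in the Cry-deficient arrays, 1.03-fold and 1.68-fold lower. By this probe set alone the Cry1 signal was above wild type at both times, where loss of the whole transcript would give a lower one. The other Cry1 probe sets lay below the floor on all 6 arrays, at most at 3 and 186, and give no direction. The position of these probe sets relative to the deleted part of either gene was not given, so they check neither label, and every direction below is between arrays as labelled.

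At CT02, 132 of the 4844 genes (2.73%) were at least 2-fold higher in the array labelled Cry-deficient and 192 (3.96%) were lower. At CT14, 119 (2.46%) were higher and 110 (2.27%) lower. These lists met in 46 genes (0.95%), 23 on the higher side (0.475%) and 23 on the lower side (0.475%). Another 12 genes (0.248%) were 2-fold apart in opposite directions, 8 of them higher at CT02 (0.165%) and 4 lower at CT02 (0.0826%). The contrasts of the 2 times share no array. Across all 4844 genes their log2 ratios correlated with a Pearson coefficient of 0.16 and a Spearman coefficient of 0.15, a description across genes, which are not independent replicates. The plot of the ratios at the 2 times shows the 46 genes as small clouds at its upper right and lower left corners. The genes just inside the threshold were Fdft1 and Cyfip2, whose smaller log2 ratio was 1.08 and 1.03, and Ccnf and Igfals, both at -1.02. Just outside lay Vegfb at 0.99 and Cyp51 at 0.98 on the higher side, and H3c14 and Pvalb, both at -0.99, on the lower side.

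**Figure D1:**
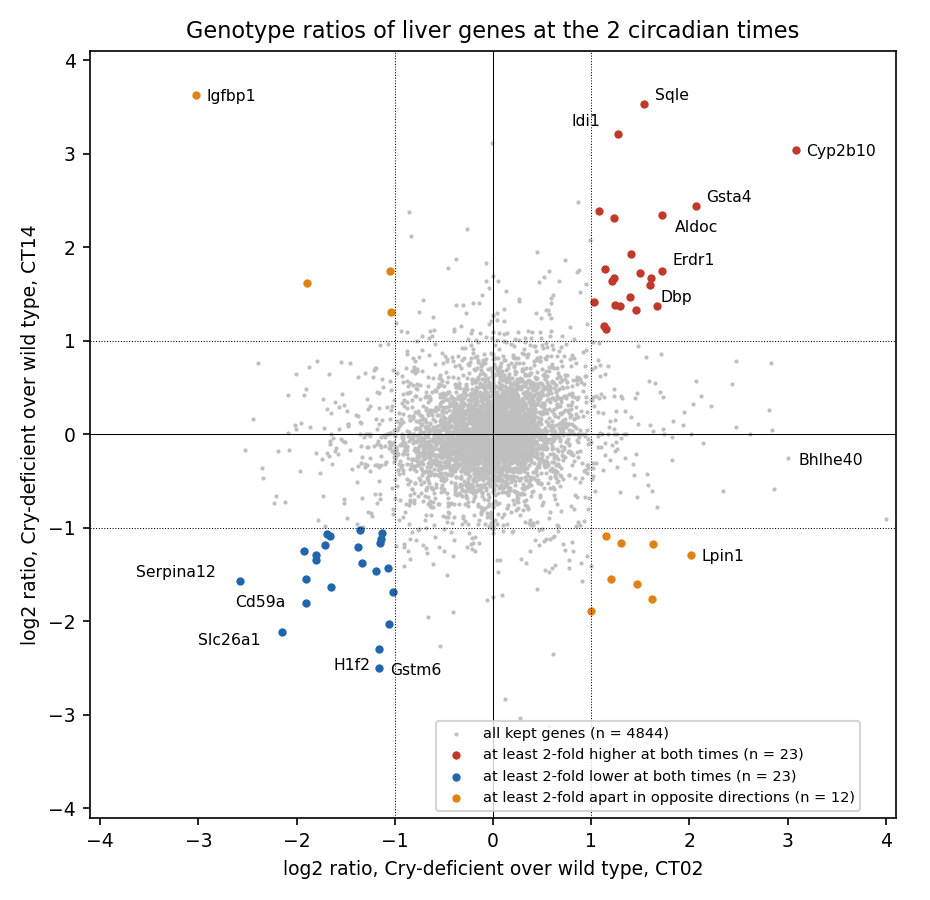
Log2 ratio of the array labelled Cry-deficient over wild type at CT02 (horizontal axis) and at CT14 (vertical axis) for each of the 4844 genes, with the 23 genes higher at both times, the 23 lower at both times and the 12 in opposite directions coloured. Cyp2b10 has the highest smaller ratio of the higher side, at 3.08 and 3.04, and Igfbp1 lies farthest out among the opposite genes, at -3.02 and 3.63.

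With 1 array per genotype and time, the only error open to a test is how far the genotype difference itself moved between the times. An additive limma fit of genotype and time to the 4 arrays used that spread. For each gene the fit drew that spread toward the spread of other genes, with 2.64 prior against 1 residual degree of freedom. It called 0 genes at a Benjamini-Hochberg adjusted p of 0.05 over the 4844 genes, while 311 (6.42%) had an unadjusted p below 0.05, 164 higher (3.39%) and 147 lower (3.03%). The smallest adjusted p was 0.651. Differences are therefore described by their size at each time and none is called a change. A fit in which all 6 arrays share the spread called 1 gene higher, Erdr1, and 1 lower, Cd59a (0.0206% each), with 296 genes (6.11%) at an unadjusted p below 0.05. These p-values measure only the spread between these arrays, as the labels do not say whether an array held RNA of 1 mouse or of a pool.

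Cyp2b10 and Gsta4 had the largest smaller ratios of the higher side. Cyp2b10, a cytochrome P450 best known as the liver's response to phenobarbital through the nuclear receptor CAR, measured 708 and 838 in wild type and 5994 and 6887 in the Cry-deficient arrays. It was 8.47-fold and 8.22-fold higher, 3.06 ± 0.23 on the log2 scale over both times (SE, limma, adjusted p = 0.651). The wild type arrays sat just above the floor and the groups were far apart. Gsta4, a glutathione transferase that clears the lipid peroxidation product 4-hydroxynonenal, measured 2098 and 1318 in wild type and 8780 and 7156 in the Cry-deficient arrays. It was 4.18-fold and 5.43-fold higher, 2.25 ± 0.20 over both times (SE, limma, adjusted p = 0.651). Its relative Gsta2 measured 7634 and 3267 in wild type and 17960 and 10438 in the Cry-deficient arrays, 2.35-fold and 3.19-fold higher. In both genotypes Gsta2 was lower at CT14 than at CT02, yet the lowest Cry-deficient value was above the highest wild type value. Papss2, which makes the sulfate donor for sulfation of drugs and steroids, missed the threshold narrowly. It measured 7323 and 6537 in wild type and 14096 and 12201 in the Cry-deficient arrays, 0.94 and 0.90 higher on the log2 scale.

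The neighbours of these genes in the same pathways mostly did not share their size of difference. Of 15 CAR and PXR targets compared, Cyp2b10 alone was 2-fold higher at both times, against 0.475% of all genes, and the median log2 ratio of the list was 0.09 at CT02 and -0.07 at CT14 beside 0.00 and -0.01 over all genes. The CT02 median of this list turned negative with the values as deposited and with lowess correction, and the CT14 median turned positive with only the probe sets that carry no letter in their name. Cyp3a11, the main drug-metabolising P450 of the CYP3A family in mouse liver, measured 22796 and 21665 in wild type and 24179 and 18496 in the Cry-deficient arrays. Cyp2b9, a close paralog of Cyp2b10, was below the floor in both wild type arrays. In the Cry-deficient arrays it measured 3360 and 1042, at least 5.54-fold and 1.72-fold higher. Cross-hybridisation between the Cyp2b paralogs cannot be told apart from expression of each. Cyp2c39 measured 981 and 394 in wild type and 1891 and 1852 in the Cry-deficient arrays, 1.93-fold and at least 3.05-fold higher. Cyp3a13 was 0.70 and 0.73 higher on the log2 scale.

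Of 26 genes of glutathione metabolism and the NRF2 response, Gsta2 and Gsta4 were 2-fold higher and Gstm6 was 2-fold lower at both times. Over all genes the share was 0.475% on either side. The median log2 ratio was 0.15 and 0.04, and at CT14 it turned negative when each probe set was taken on its own. Gstt2 measured 4560 and 7272 in wild type and 10072 and 11371 in the Cry-deficient arrays, 1.14 and 0.65 higher on the log2 scale. Gstm6, a mu-class transferase, went the other way at 5906 and 3809 in wild type and 2647 and 672 in the Cry-deficient arrays, 2.23-fold and 5.67-fold lower. A second Gstm6 probe set was also lower, by less. The NRF2 targets Hmox1, Txnrd1, Gclm and Srxn1 differed by at most 0.28 on the log2 scale at either time, and Gclc was 0.45 lower at CT02 and 0.45 higher at CT14.

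Enzymes of cholesterol synthesis formed the largest group on the higher side, and differed much more at CT14. Of 16 compared, 5 were 2-fold higher at CT02 and 10 at CT14, against 2.73% and 2.46% of all genes. All 16 lay above wild type at CT14, with a median log2 ratio of 1.51, while at CT02 9 were higher, 4 lower and the median was 0.28. Idi1, Fdft1, Sqle, Lss and Msmo1 were 2-fold higher at both times. Sqle, squalene epoxidase, measured 773 and 890 in wild type and 2249 and 10257 in the Cry-deficient arrays, 2.91-fold and 11.5-fold higher. Idi1, the isopentenyl diphosphate isomerase, measured 1618 and 2097 in wild type and 3902 and 19364 in the Cry-deficient arrays, 2.41-fold and 9.23-fold higher. In both enzymes wild type hardly differed between the times, and the CT14 Cry-deficient array held the high value.

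Fdft1, squalene synthase, measured 2761 and 2065 in wild type against 5853 and 10795, and Msmo1, a sterol methyl oxidase, 2268 and 2869 against 5318 and 14261. In Lss, lanosterol synthase, the groups overlapped, since its wild type CT14 value of 1950 lay above the Cry-deficient CT02 value of 1728. Cyp51 fell just short at CT02, 1.98-fold and 4.22-fold higher. Another pair of enzymes was far from wild type at CT14. Nsdhl measured 1649 and 1487 in wild type and 1642 and 12901 in the Cry-deficient arrays, 8.68-fold higher at CT14. Hmgcs1, at the head of the pathway, measured 4908 and 2766 in wild type and 2721 and 14318 in the Cry-deficient arrays, 1.80-fold lower at CT02 and 5.18-fold higher at CT14. The transcription factor Srebf1 measured 15369 and 19770 in wild type and 9688 and 11820 in the Cry-deficient arrays, 0.67 and 0.74 lower on the log2 scale.

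Single genes from other parts of metabolism were higher as well. Lipid genes as lists were not, with median log2 ratios of 0.10 and -0.11 for lipogenesis and 0.08 and -0.04 for fatty acid oxidation. Apoa4, an apolipoprotein of triglyceride-rich particles, measured 4024 and 4006 in wild type and 10676 and 15196 in the Cry-deficient arrays, 2.65-fold and 3.79-fold higher. It was the only one of 19 genes of apolipoproteins and lipoprotein handling to be 2-fold apart at both times, against 0.95% of all genes. Agpat1, which acylates lysophosphatidic acid, was 2.19-fold and 2.23-fold higher, and Aldoc, an aldolase, by at least 3.30-fold and 5.07-fold. Aldoc was among the genes compared only through its Cry-deficient values, so that it had to stand higher somewhere. Cyp17a1, the 17α-hydroxylase of steroid synthesis, measured 1182 and 1698 in wild type and 2744 and 5279 in the Cry-deficient arrays, but a second probe set gave 1049 and 1132 against 106 and 332. The probe sets of Cyp17a1 thus disagreed in direction, and the gene's difference is uncertain. The same holds for Tfap2a, a developmental transcription factor, and for Erdr1, the gene with the smallest p. Erdr1 measured 8105 and 6460 in wild type and 26798 and 21593 in the Cry-deficient arrays, 3.31-fold and 3.34-fold higher, while its second probe set was 0.37 and 0.32 lower on the log2 scale.

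The remaining genes on the higher side have no list in common. Foxa2, a liver transcription factor, measured 76 and 747 in wild type and 1851 and 2376 in the Cry-deficient arrays, at least 3.05-fold and 3.18-fold higher. Cpsf4, a polyadenylation factor, was 2.83-fold and 3.31-fold higher, and Phlda1 2.21-fold and 3.39-fold. Itch, a ubiquitin ligase, measured 2637 and 2339 in wild type and 5865 and 5116 in the Cry-deficient arrays, 2.22-fold and 2.19-fold higher. Clps, the colipase of the exocrine pancreas, measured 995 and 901 in wild type and 2357 and 2349 in the Cry-deficient arrays. Clps was as high in the Clock mutant, at 2582 and 2414. Of 5 other exocrine pancreas genes compared, 1 was higher at CT02 and 3 at CT14, with medians of -0.08 and 0.69, and the part of pancreatic RNA in the Clps value was not tested. Crebrf was higher by at least 2.45-fold and 2.59-fold and Cyfip2 by at least 2.04-fold and 2.66-fold, both from wild type arrays at the floor. In all, 18 of the 23 genes were above the floor on all 4 arrays, and the difference was larger at CT14 in 18. Aldoc and Dbp passed the filter on dim genes only through their Cry-deficient values, so that they had to stand higher somewhere, and the other 21 passed without them.

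**Figure D2:**
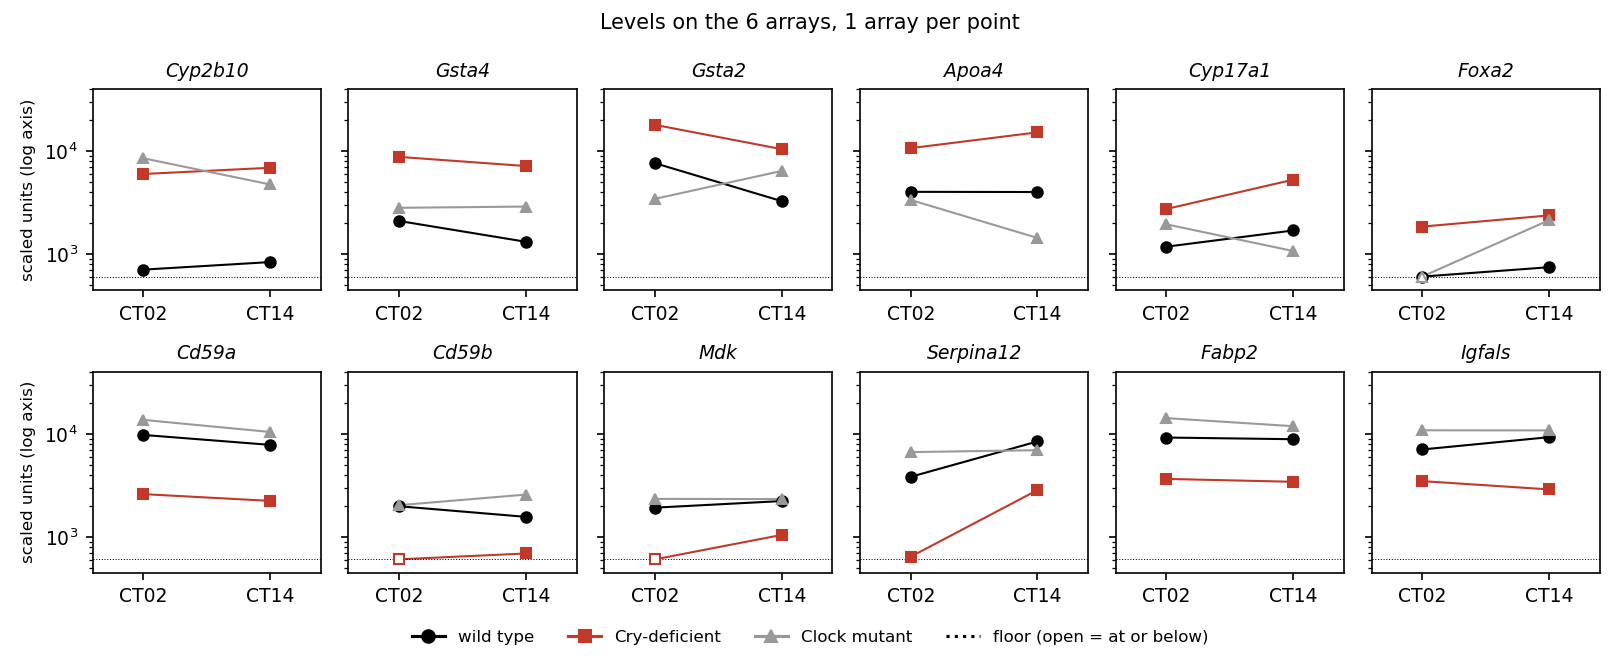
Scaled intensity (log axis) of leading genes higher or lower at both times on all 6 arrays, 1 point per array, with a line joining the CT02 and CT14 arrays of a genotype, a dotted line at the floor of 606 scaled units and open points at or below it. For Cyp2b10 the Cry-deficient arrays read 5994 and 6887 against 708 and 838 in wild type, and for Cd59a 2601 and 2236 against 9754 and 7813.

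After Slc26a1, described further on, Cd59a had the largest smaller ratio of the lower side. Cd59a, a membrane-anchored inhibitor of the complement attack complex, measured 9754 and 7813 in wild type and 2601 and 2236 in the Cry-deficient arrays. It was 3.75-fold and 3.50-fold lower, -1.86 ± 0.15 on the log2 scale over both times (SE, limma, adjusted p = 0.651). Its paralog Cd59b, the adjacent gene in the annotation, measured 1984 and 1565 in wild type and 117 and 691 in the Cry-deficient arrays, at least 3.27-fold and 2.27-fold lower. Whether the Cd59b probe set also reads Cd59a RNA cannot be told from the arrays. Among 19 complement genes and regulators these were the only ones 2-fold apart at both times, against 0.95% of all genes. The median log2 ratio of the list was 0.12 and -0.03, both turning sign with the values as deposited. Of the 19, 13 were higher and 6 lower at CT02, and 8 were higher and 11 lower at CT14. Cfb, complement factor B, was 0.53 and 0.62 lower on the log2 scale, and C1qa was 3.17-fold lower at CT02 and 1.05-fold lower at CT14. Cr1l was 0.48 and 0.40 higher on the log2 scale. C1qb was 0.49 and 0.16 higher, while its second probe set was 0.82 and 0.33 lower. Serpina12 (vaspin), a secreted serine protease inhibitor, measured 3829 and 8434 in wild type and 643 and 2846 in the Cry-deficient arrays. It was 5.96-fold and 2.96-fold lower, -2.07 ± 0.33 over both times (SE, limma, adjusted p = 0.735). In both genotypes Serpina12 was higher at CT14 than at CT02, and the Cry-deficient CT14 value stayed below the wild type CT02 value. No other of 15 serpin genes was 2-fold apart at either time. Over all genes 2.73% were higher and 3.96% lower at CT02, and 2.46% and 2.27% at CT14.

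Igfals, the acid-labile subunit that holds IGF1 in the circulation and a target of growth hormone, measured 7049 and 9278 in wild type and 3476 and 2890 in the Cry-deficient arrays, 2.03-fold and 3.21-fold lower. Igf1 measured 15567 and 15880 in wild type and 18723 and 14782 in the Cry-deficient arrays, and Ghr, the receptor, was 0.05 and 0.26 lower on the log2 scale. Cish, a feedback inhibitor of the same pathway, was on the other side, at 805 and 1165 in wild type and 1209 and 3192 in the Cry-deficient arrays. Onecut1, a transcription factor on the same list, was 1.67-fold and 3.63-fold higher. Of the 17 growth hormone and STAT5 genes, 3 were 2-fold lower at CT02 and 2 at CT14, against 3.96% and 2.27% of all genes. None, 0 of 17, was 2-fold higher at CT02 and 3 were at CT14, against 2.73% and 2.46%. At both times 1 was 2-fold lower and 0 were 2-fold higher, against 0.475% on either side. Among liver genes that are higher in females than in males, 8 could be compared, 1 of which was at the floor on all 4 arrays. Of these, 3 were 2-fold higher and 0 lower at CT02, and 3 were higher and 1 lower at CT14, against 2.73% higher at CT02 and 2.46% higher and 2.27% lower at CT14 over all genes. By any size, 5 of the 8 were higher and 1 lower at CT02, and 5 were higher and 2 lower at CT14. The medians of these few genes were 0.66 and 0.65. Cyp2b10 and Cyp17a1, whose probe sets disagreed, were the 2 of them apart at both times. Cyp4a14 was 1.43-fold and 3.21-fold higher, and Fmo1 1.75-fold and 1.43-fold. With no filter on dim genes both medians were 0.00, and with scaling, floor and filter from the 4 arrays they were 1.01 and 1.22. Of 16 male-biased genes, 1 was 2-fold lower at both times, against 0.475% of all genes. Their medians were 0.12 and -0.06, the first turning negative with the values as deposited.

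Slc26a1, a sulfate and oxalate transporter of hepatocytes, led the lower side. It measured 2693 and 2625 in wild type and lay below the floor in both Cry-deficient arrays, at least 4.44-fold and at least 4.33-fold lower. Slc26a1, like Gpx3 below, was compared only because wild type was high, so that it had to stand lower somewhere. Fabp2, the intestinal fatty acid-binding protein, measured 9201 and 8866 in wild type and 3654 and 3425 in the Cry-deficient arrays, 2.52-fold and 2.59-fold lower. The values of Fabp2 hardly differed between the times within a genotype. Gpx3, the plasma glutathione peroxidase, measured 1571 and 2721 in wild type and -101 and 1184 in the Cry-deficient arrays, at least 2.59-fold and 2.30-fold lower. Chka, choline kinase alpha, was 3.22-fold and 2.09-fold lower.

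The other genes of the lower side shared none of the lists used here. Of the 13 listed cell cycle genes and the 19 listed for the unfolded protein response, 0 were 2-fold lower at both times. Over all genes the share was 0.475%, so that 0 in lists of this size says little. Ccnf, Foxm1, Fkbp11 and Uggt1, given below, were not on these lists, so the 0 holds for the listed genes only. H1f2, a linker histone, measured 10638 and 11660 in wild type and 4769 and 2378 in the Cry-deficient arrays, 2.23-fold and 4.90-fold lower. Ccnf, cyclin F, was 2.56-fold and 2.03-fold lower. Foxm1, a cell cycle transcription factor, was at the floor in both Cry-deficient arrays, but a second probe set was 0.88 and 0.46 higher on the log2 scale, so its direction is uncertain. Of the folding factors of the endoplasmic reticulum, Fkbp11 was at least 2.08-fold and at least 4.07-fold lower, and Uggt1 2.20-fold and at least 2.08-fold. Of the others, Prpsap1, which binds phosphoribosyl pyrophosphate synthetase, was 3.80-fold and 2.38-fold lower and Get4, of tail-anchored protein insertion, at least 3.48-fold and at least 2.44-fold. Tbc1d15, a Rab GTPase-activating protein, was 3.13-fold and 3.09-fold lower by one probe set and 0.60 higher and 0.04 lower on the log2 scale by another. Dct, Grik5, Hivep3, Med24, Mdk and Adam5 were lower by 2.09-fold to at least 3.74-fold, from wild type values of 1322 to 2284. In all, 12 of the 23 genes on the lower side had at least 1 Cry-deficient array at the floor. For 6 of the 23 (Get4, Gpx3, Grik5, Hivep3, Slc26a1 and Uggt1) the mean over the other genotypes was below the floor, so that they were compared only because wild type was high, and had to stand lower somewhere.

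Promoter sequence was examined because E-boxes are the sites through which CLOCK and ARNTL, the factors that cryptochromes restrain, act. RefSeq promoters of assembly GRCm38.p6, from 250 bases before to 50 after a transcription start, were at hand for 15 of the 23 genes on the higher side and 19 of the 23 on the lower side. The sequence of Dbp, the best-known clock output gene on the higher side, is shown beside those of Crebrf and Slc26a1, one gene of either side with an E-box in this window. Capitals mark CACGTG, the E-box, searched on both strands, and each sequence runs in the direction of its gene. The Dbp window is chr7:45704997-45705296 (plus strand), that of Crebrf chr17:26715400-26715699 (plus strand) and that of Slc26a1 chr5:108674747-108675046 (minus strand).
Dbp: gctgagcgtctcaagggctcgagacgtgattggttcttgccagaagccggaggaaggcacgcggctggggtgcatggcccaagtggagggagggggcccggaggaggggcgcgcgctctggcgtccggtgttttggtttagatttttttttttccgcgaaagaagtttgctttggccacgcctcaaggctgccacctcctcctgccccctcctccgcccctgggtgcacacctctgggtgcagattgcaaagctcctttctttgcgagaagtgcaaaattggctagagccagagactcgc
Crebrf: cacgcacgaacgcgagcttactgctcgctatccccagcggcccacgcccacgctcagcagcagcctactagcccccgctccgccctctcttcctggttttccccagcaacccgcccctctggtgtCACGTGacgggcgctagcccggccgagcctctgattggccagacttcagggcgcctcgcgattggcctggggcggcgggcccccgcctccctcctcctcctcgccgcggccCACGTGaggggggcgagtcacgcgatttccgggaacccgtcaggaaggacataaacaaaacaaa
Slc26a1: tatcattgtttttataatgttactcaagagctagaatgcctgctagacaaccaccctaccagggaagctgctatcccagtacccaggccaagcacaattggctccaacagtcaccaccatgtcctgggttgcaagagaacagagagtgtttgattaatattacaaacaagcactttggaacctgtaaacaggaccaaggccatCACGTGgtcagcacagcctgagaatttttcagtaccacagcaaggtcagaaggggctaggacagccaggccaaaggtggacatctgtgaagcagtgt
The Crebrf window holds CACGTG at 125 and 14 bases before the start, the Slc26a1 window at 47 bases before it, and a second annotated Slc26a1 promoter holds none. The letters CACGTG are not in this window of Dbp.

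Over the whole groups, CACGTG was in 1 of 21 promoters on the higher side (4.76%) and in 5 of 26 on the lower side (19.2%), the latter of Fkbp11, Get4, Slc26a1 and Tbc1d15. It was in 10.1% of the promoters of all compared genes and 7.15% of all promoters in the table. The E-box variant CACGTT, which cannot match the same bases as CACGTG, and the D-box TTATGTAA were in 0 promoters of either side, against 4.79% and 0.596% of compared genes. TAGGTCA, the core of the site bound by NR1D and ROR receptors, was in 1 promoter, of Igfals, against 2.19%. TTCNNNGAA, the site of STAT factors, was in 4 promoters on the higher side, of Agpat1, Aldoc, Crebrf and Dbp, and in 3 on the lower side, of Gstm6 and Igfals (11.5%), against 6.64%. All motifs were searched on both strands. With so few promoters these shares are counts of letters and say nothing of binding.

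Clock genes showed where the 2 times parted. Of the 11 repressor and E-box output genes compared, Nr1d2 and Dbp were 2-fold higher at both times, against 0.475% of all genes. Dbp was among the genes compared only through its Cry-deficient values. Dbp, a transcription factor whose RNA is a classic readout of CLOCK activity, measured -392 and 750 in wild type and 1836 and 2259 in the Cry-deficient arrays. It was at least 3.03-fold and 3.01-fold higher, and in the Clock mutant it lay below the floor at both times. Nr1d2, the receptor REV-ERBβ, measured 916 and 1366 in wild type and 2906 and 3541 in the Cry-deficient arrays, 3.17-fold and 2.59-fold higher. The Clock mutant read 22 and 1022 for Nr1d2, so for both genes the Cry-deficient arrays were the highest of the 6.

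Per2, Bhlhe40, Tef and Usp2 were at least 2-fold higher at CT02 alone, where wild type was low. Per2 measured 251 and 4058 in wild type and 3071 and 2665 in the Cry-deficient arrays, at least 5.07-fold higher at CT02 and 1.52-fold lower at CT14. Bhlhe40, a repressor of the same loop, measured 1111 and 5564 in wild type and 8924 and 4652 in the Cry-deficient arrays, 8.03-fold higher at CT02 and 1.20-fold lower at CT14. Tef, a relative of Dbp, measured 2543 and 6350 in wild type and 7680 and 6790 in the Cry-deficient arrays. In each of these the 2 Cry-deficient values lay nearer to each other than the 2 wild type values did. Usp2 followed the same order at 733 and 3404 in wild type and 5264 and 3514 in the Cry-deficient arrays. Its second probe set was higher at both times, by at least 1.81 and by 0.94 on the log2 scale. Cry1 and Wee1 were also higher at both times, by 1.07 and 0.79 for Cry1 and at least 0.93 and 0.54 for Wee1. Nr1d1 and Per3 stood out from the genes above, with log2 ratios of -0.02 and 0.24 for Nr1d1 and -0.34 and -0.12 for Per3. Over the 11 genes 7 were 2-fold higher at CT02 and 2 at CT14, against 2.73% and 2.46% of all genes. The 7 include Cry1, a targeted gene whose probe set does not check the label. The median log2 ratios of the 11 were 1.59 and 0.10. Among the 4 genes of the activator side, Arntl measured 2102 and 865 in wild type and 1459 and 1097 in the Cry-deficient arrays. Clock was 2.10-fold lower at CT02 and 1.95-fold higher at CT14.

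**Figure D3:**
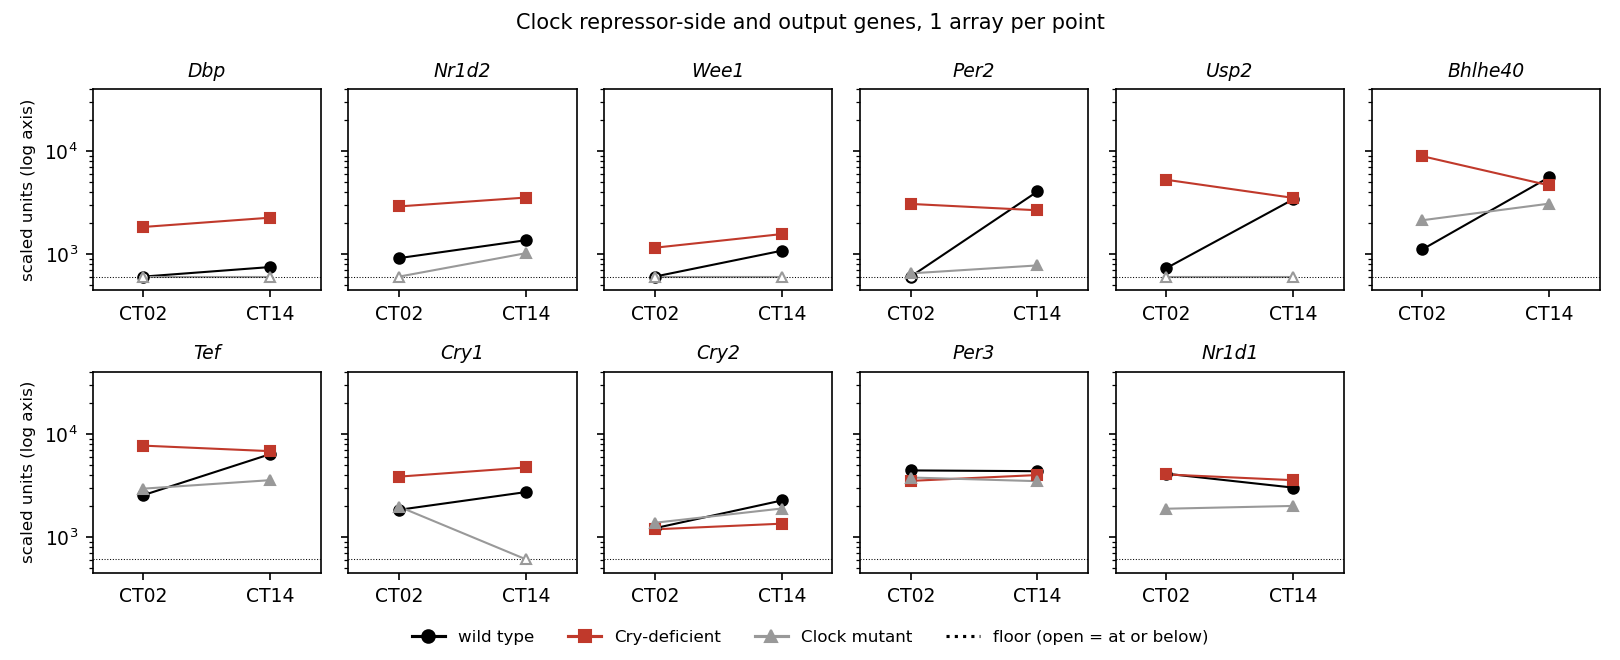
Scaled intensity (log axis) of clock genes at CT02 and CT14, with a line per genotype joining its 2 arrays, a dotted line at the floor of 606 scaled units and open points at or below it. Dbp and Nr1d2 lie above wild type at both times in the arrays labelled Cry-deficient, while Per2, Bhlhe40, Tef and Usp2 lie at least 3.02-fold above it at CT02, and Per2 and Bhlhe40 lie 1.52-fold and 1.20-fold below it at CT14.

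Position on the chromosome is a property that the selection of genes did not use. Among the 200 annotated genes on either side of Cry2, on chromosome 2, 36 were compared, and 3 of them (8.33%) were 2-fold lower at both times: Mdk, Cd59b and Cd59a. Over all genes the share was 0.475%, and over chromosome 2 it was 3 of 376 (0.798%), these same genes. Mdk, midkine, is a heparin-binding growth factor that lies 16 annotated genes from Cry2. It measured 1922 and 2228 in wild type and 471 and 1046 in the Cry-deficient arrays, at least 3.17-fold and 2.13-fold lower. Cd59b and Cd59a lie 127 and 128 genes from Cry2 on its other side, next to each other, so that they are one locus and not separate instances. In the Clock mutant, whose arrays share the wild type comparison, Mdk read 2338 and 2327 and Cd59a 13650 and 10416. None of the 36 was 2-fold higher at both times, and the medians of the group, 0.04 and -0.06, were close to those of all genes. Within 50 or 100 genes on either side of Cry2 only Mdk remained. Around Cry1, 0 of 50 genes compared were 2-fold apart at both times, against 0.95% of all genes, a share that leaves few to be found among 50. The strain of the mutants was not given, so that flanking DNA carried along with the targeted allele and the loss of Cry itself cannot be told apart here.

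**Figure D4:**
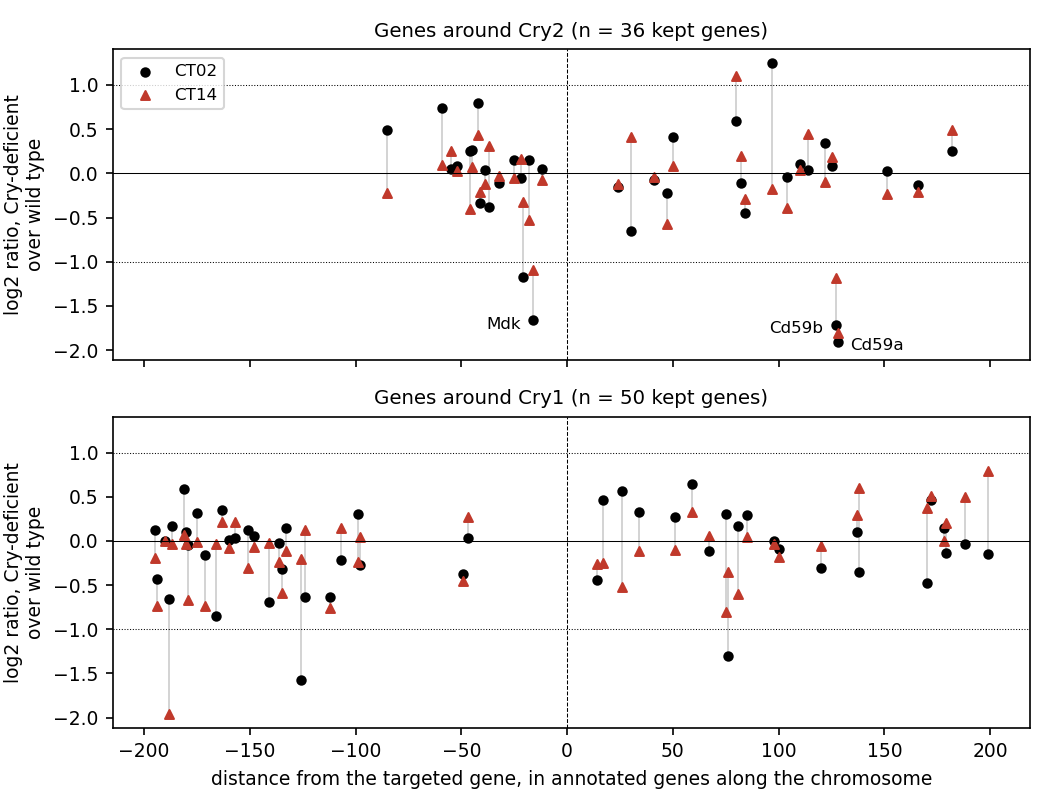
Log2 ratio of the arrays labelled Cry-deficient over wild type at CT02 and CT14 (2 points per gene joined by a line) for the genes compared among the 200 annotated genes on either side of Cry2 (36 genes) and of Cry1 (50 genes), by distance in annotated genes. Mdk, Cd59b and Cd59a lie below the 2-fold line at both times, and around Cry1 no gene is past it at both.

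The Clock mutant arrays, set against the same wild type arrays, give the leading genes a second set of levels. Because the wild type arrays are shared, a likeness between the mutants can come from them alone. The Clock mutant CT02 array had the highest 3′ to 5′ ratio of Actb in the series, 2.68, whose part in its values was not tested. Cyp2b10 read 8511 and 4743 in the Clock mutant, beside 5994 and 6887 in the Cry-deficient arrays, and Erdr1 read 20808 and 18291 beside 26798 and 21593. By these probe sets the wild type arrays were the lowest of the 6 for both genes. The second probe set of Erdr1 instead put wild type highest at each time, with 1144 and 838. Its Cry-deficient values were 884 and 671, while its Clock mutant values of -160 and 410 lay below the floor. The direction of Erdr1 is therefore uncertain for either mutant. Gsta4 read 2816 and 2896 in the Clock mutant, above wild type but below the Cry-deficient arrays. On the lower side, Slc26a1 read 757 and 507 and H1f2 3090 and 3037 in the Clock mutant, both below wild type. Slc26a1 was compared only because wild type was high, so that its low values in the mutants follow in part from the filter. Cd59a, Fabp2 and Igfals went to the other side, with Clock mutant values of 13650 and 10416, 14197 and 11855, and 10823 and 10790, all above wild type. Serpina12 read 6647 and 6940 in the Clock mutant, with log2 ratios over wild type of 0.80 at CT02 and -0.28 at CT14.

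Across the remaining lists of liver pathways, few members were apart at both times. Of 25 genes of fatty acid oxidation and PPARA targets, 0 were 2-fold higher or lower at both times. The same held for 14 genes of bile acid synthesis and transport, 16 of lipogenesis and 24 of the urea cycle and amino acid catabolism. Over all genes the share was 0.95%, so that 0 in lists of this size says little about these pathways. Ppara, the receptor that governs fatty acid oxidation, measured 11017 and 10608 in wild type and 7254 and 5405 in the Cry-deficient arrays, 1.52-fold and 1.96-fold lower. Apart from cholesterol synthesis, female-biased genes, both clock lists and the unfolded protein response, the medians of the pathway lists lay between -0.24 and 0.25, as the plot of list medians shows. The unfolded protein response had a median of 0.21 at CT02 and -0.41 at CT14, and heat shock genes 0.25 and -0.23. The brightest 10% of all genes had medians of 0.12 at CT02 and -0.03 at CT14, the range in which many of these lists lay. With the values as deposited the median over all genes itself moved to -0.11 at CT02, so that list medians of that size at CT02 depend on the scaling.

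**Figure D5:**
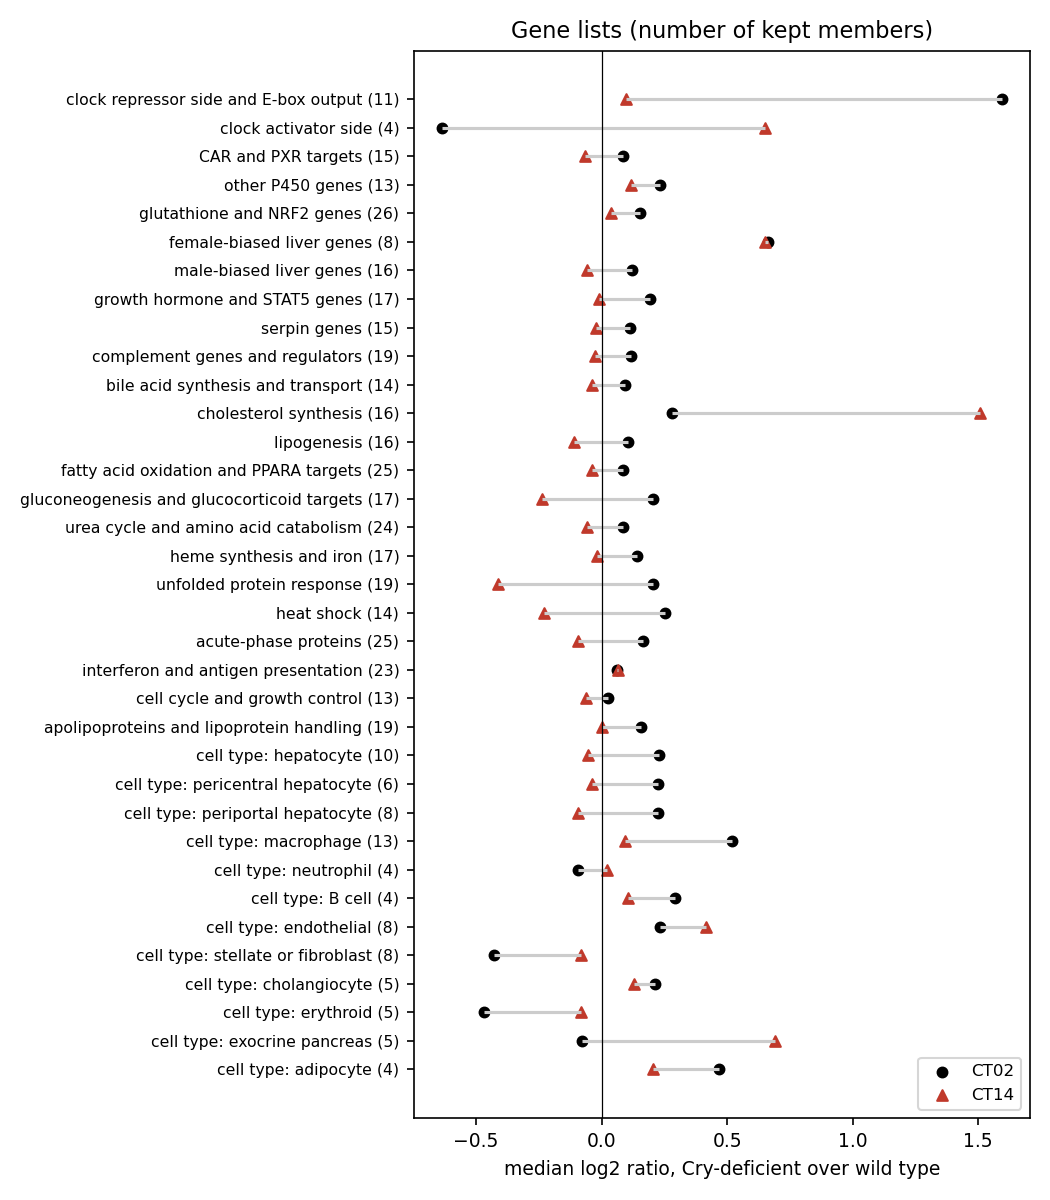
Median log2 ratio of the arrays labelled Cry-deficient over wild type for each gene list at CT02 and at CT14, with the number of genes compared beside its name (lists of at least 4) and a vertical line at 0, where the medians over all genes lay (0.00 and -0.01). Cholesterol synthesis stands at 0.28 and 1.51 and the clock repressor and output genes at 1.59 and 0.10, while female-biased genes stand at 0.66 and 0.65.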

How the data were processed

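For each array the authors deposited the intensity of 12488 Affymetrix probe sets as positive and negative whole numbers. In the sources used here no software, subtraction or scaling behind these intensities is given. Each array was divided by its median ratio to the mean of the 6 arrays over 6065 bright probe sets. Values under the pooled median, 606 units, were set to it, and log2 was taken. A gene is its brightest probe set among the 10833 with 1 symbol in the platform annotation (396 had several and 1193 none), kept if its mean over the 6 arrays reached the floor. Genotypes were compared within each time, at 2-fold, and over both times by limma 3.58.1 (R 4.3.3; eBayes with trend, time as a block, 1 residual degree of freedom per gene) with Benjamini-Hochberg adjustment over 4844 genes. The limma step was tested on simulated data. Python 3.11.15 did the rest. Precision is limited by the single array per genotype and time.

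Named genes were the 4 markers given for this comparison (Cyp2b10, Gsta4, Serpina12 and Cd59a), clock genes, the top 15 either way by the smaller ratio, among those above the floor throughout, the 8 largest in each direction with a genotype at the floor, the 10 smallest p, up to 4 per list, the 5 largest differences between times in each direction, and called neighbours of Cry1 and Cry2. Any other name was picked with its values in view. The genes and lists were chosen with earlier results of these data known. Alternatives covered scaling, floor, filter, choice of probe set, fold threshold and the fit.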

Additional observations from a re-analysis of the deposited data

Results flagged for a closer look

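For 12 genes the arrays labelled Cry-deficient were at least 2-fold to one side of wild type at CT02 and at least 2-fold to the other at CT14. Each is given by its log2 ratio at CT02, at CT14 and the CT14 ratio minus the CT02 ratio. The differences between the times were not tested. On the side of lower at CT02 and higher at CT14, Igfbp1, a hepatic IGF-binding protein, had -3.02 and 3.63, a difference of 6.65 and a lower bound because wild type was at the floor at CT14. Cdh3 had -1.90 and 1.62 (3.51, a lower bound), Arsa -1.05 and 1.75 (2.80) and Ddx46 -1.04 and 1.31 (2.35, a lower bound). On the other side, the glucocorticoid targets Fkbp5 and Zbtb16 had 1.62 and -1.76 (-3.38, a bound) and 1.20 and -1.55 (-2.75). Lpin1, a phosphatidate phosphatase, had 2.02 and -1.29 (-3.30), and the acute-phase genes Orm2 and Saa2 had 1.46 and -1.60 (-3.07) and 1.30 and -1.16 (-2.46). Krt81 had 1.003 and -1.88 (-2.89, a bound), Abcc5 1.63 and -1.17 (-2.79, a bound) and Lhb 1.15 and -1.09 (-2.24).

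Of 36 lists, 21 had medians of opposite sign at the 2 times. In 4 of them both medians were at least 0.2 from 0, and these differences were not tested either. The clock activator side moved from -0.64 to 0.65 (a difference of 1.29), the unfolded protein response from 0.21 to -0.41 (-0.62), heat shock genes from 0.25 to -0.23 (-0.48), and genes of gluconeogenesis and glucocorticoid response from 0.20 to -0.24 (-0.44).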

How the results depend on the processing

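The counts of genes 2-fold apart stayed within 1.5 times under other scalings and other choices of probe set. A floor at the 25th percentile gave 39 genes higher and 42 lower at both times, and 40 in opposite directions. Keeping genes above the 75th percentile (2523 genes) gave 12 higher and 6 lower at both times and 4 opposite, with 42 higher and 69 lower at CT02 and 35 and 28 at CT14. A 3-fold threshold gave 6 and 3 at both times and 3 opposite, 43 and 56 at CT02 and 39 and 21 at CT14. A 1.5-fold threshold gave 89 and 99 at both times and 105 opposite, 432 and 589 at CT02 and 389 and 361 at CT14. With only genes that cleared the floor on all 4 arrays, a choice added after seeing the data, 11 were lower. The limma fit called 10 genes higher and 7 lower with the 75th percentile filter, among them Cyp2b10, Gsta4, Serpina12, Cd59a and Igfals, 2 higher (Cyp2b10 and Erdr1) with scaling, floor and filter from the 4 arrays, and 1 and 1 with all 6 arrays in the fit. Leaving out single arrays in that last fit, added after seeing the data, gave 0 to 12 higher and 0 to 11 lower. It called 12 and 6 without Cry-deficient CT02, 12 and 11 without Cry-deficient CT14, and 0 and 0 without either wild type array, the lone array being assumed to vary like the others. Near Cry1, 1 gene was called with the lower floor, 2 at 1.5-fold and 3 within 400 genes on either side. Near Cry2, 1 was called at 3-fold and 1 within 50 or 100 genes, the windows being added after seeing the data. With scaling, floor and filter from the 4 arrays, another Foxm1 probe set was the brightest and its log2 ratios became 0.89 and 0.46. The causes of the other shifts were not tested. The labels carry no replicate numbers, and the arrays were paired by circadian time, which was the block of the fit. Without that block it called 0 genes, with 345 at an unadjusted p below 0.05 (limma). Signal over background limits dim genes: 12 of the 23 genes lower at both times rest on bounds.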

Other observations

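The metallothioneins are metal-binding proteins that stress and glucocorticoids raise. Among the 4 arrays compared they were highest in the Cry-deficient CT02 array. Mt1 read -696 and 1136 in wild type and 9698 and -712 in the Cry-deficient arrays at CT02 and CT14, and Mt2 read 1261 and 1471 against 9174 and 980. The Clock mutant read 1558 and 14582 for Mt2, the highest value of the series. Mt1 was at least 16-fold higher at CT02. Of 25 acute-phase genes, 5 were 2-fold higher and 0 lower at CT02, while 0 were higher and 3 lower at CT14. Over all genes the shares were 2.73% and 3.96% at CT02 and 2.46% and 2.27% at CT14. Marco, a scavenger receptor of macrophages, read 281 and 298 in wild type and 2831 and 745 in the Cry-deficient arrays. These CT02 values come from the array with the high 3′ to 5′ ratio of Gapdh, 2.37, whose part in them was not tested.

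Hspa1b, an inducible HSP70, read 2276 and 10370 in wild type and 2757 and 1263 in the Cry-deficient arrays, 8.21-fold lower at CT14. Bag3, its co-chaperone, read 3224 and 5137 in wild type and 2218 and 1073 in the Cry-deficient arrays. Of 14 heat shock genes 3 were 2-fold lower at CT14 and 0 at CT02, against 2.27% and 3.96% of all genes. The wild type CT14 array held the highest of the 4 values in both genes.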
